A study of Mus musculus with 6 samples.

Results

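Prss35 and Prss23 encode a pair of closely related members of the trypsin-like serine protease family. Their transcripts were followed in 6 RNA-seq libraries of NOR-10 cells, an established line of mouse skeletal muscle fibroblasts. Control cells received PBS, and D-gal cells received D-galactose at 20 mg/mL for 3 days, a sugar load used in the study to model ageing of muscle fibroblasts. Each group had 3 libraries, numbered in the labels, and all came from 1 cell line. The sources used here do not say that the libraries came from separate cultures, so the spread between them may be technical. These are 2 of the 34745 genes in the count table, and both passed the filter on low counts, as did 13407 genes in all. Prss35 was chosen by its measured log2 fold change in D-gal against control, the largest rise among genes with at least 100 counts in every D-gal library, and Prss23 was chosen as its paralog. The values of both genes in D-gal against control are therefore given as a description, without a test.

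Proteases of this family are made with a signal peptide, enter the secretory pathway and cut proteins after basic residues with a triad of histidine, aspartate and serine. Many are made as inactive precursors that another protease cleaves, and serpins and other inhibitors trap the active forms. PRSS35 is classed as an inactive member, since a threonine stands where active proteases carry the catalytic serine. PRSS23 keeps the serine. Both were described in the mouse ovary, where they are expressed in follicle and luteal cells.

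The position of the catalytic residue is shown because it separates the members. Windows of 27 bases around the codon are given, in the GRCm38 genome with the GENCODE M21 annotation. The Prss35 window lies on chromosome 9 (chr9:86756190-86756216, plus strand) and the Prss23 window on chromosome 7 (chr7:89509903-89509929, minus strand). Capitals mark codon 342 of Prss35 and codon 315 of Prss23, which fell on the same position when the coding sequences were aligned, and 4 further codons are given on each side.
Prss35: gaggcaggctccACAggctcggggatc
Prss23: cagcccggggccAGTggttcaggggtc
ACA codes for threonine and AGT for serine. Over the 376 aligned codons, 196 residues were identical (52.1%), and 55.9% of the bases were. The transcripts shared 0 words of 31 bases, so a read of that length without a mismatch cannot come from both genes.

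Prss35 (ENSMUSG00000033491, chr9:86743649-86758443, plus strand) has a first exon of 158 bases, which is 5′ UTR. Its second exon, of 3286 bases in the longer of its coding transcripts, holds the whole coding sequence of 1227 bases. In the other coding transcript the 3′ UTR is split by an intron. Prss23 (ENSMUSG00000039405, chr7:89507785-89517586, minus strand) is built in the same way. In its main transcript, a first exon of 140 bases is followed by an exon of 3088 bases with the whole coding sequence of 1146 bases. No exon of another annotated gene overlapped those of Prss35. The antisense gene Prss23os covered 864 of the 3767 exon positions of Prss23 (22.9%). Prss23os held a total of 2 counts over the 6 libraries, and whether the counting used strand is not given in the sources used here.

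**Figure D1:**
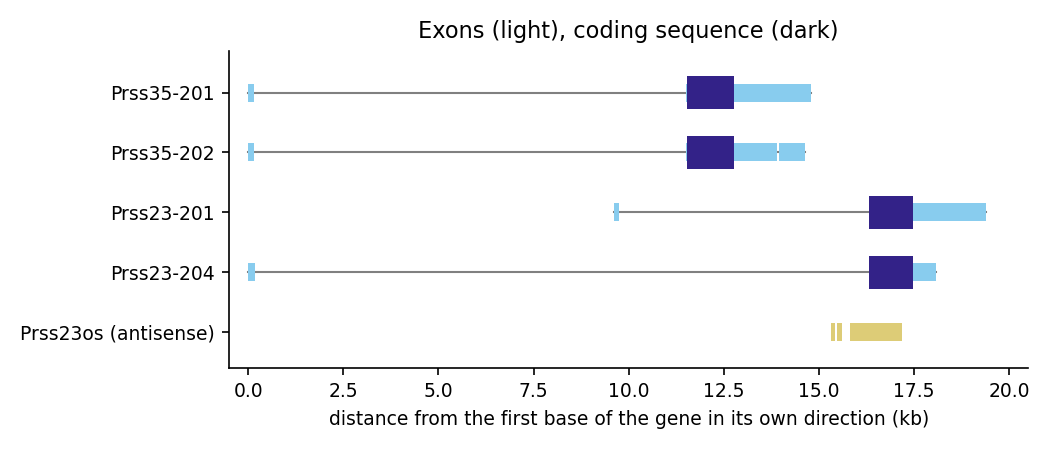
Exon maps of Prss35 and Prss23 (GENCODE M21, GRCm38), with the distance from the gene's first base in kb on the x axis, light boxes for exons and dark boxes for coding sequence, and with the antisense Prss23os below. In both genes the whole coding sequence lies in exon 2, and Prss23os overlaps that exon of Prss23.

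The promoters are shown because the levels of the members moved in opposite directions. The windows hold the 250 bases before the RefSeq transcript start (GRCm38.p6) of Prss35 (chr9:86743383-86743632, plus strand) and of Prss23 (chr7:89517587-89517836, minus strand). RefSeq lists 1 start for Prss35 and 7 for Prss23, of which the one at the end of the gene in the deposited table was taken. Capitals mark matches to the motifs searched.
Prss35: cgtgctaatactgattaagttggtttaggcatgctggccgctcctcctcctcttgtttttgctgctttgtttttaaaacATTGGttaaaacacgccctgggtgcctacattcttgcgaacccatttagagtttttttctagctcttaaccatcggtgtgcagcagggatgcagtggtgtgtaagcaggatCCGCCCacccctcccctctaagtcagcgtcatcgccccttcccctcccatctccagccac
Prss23: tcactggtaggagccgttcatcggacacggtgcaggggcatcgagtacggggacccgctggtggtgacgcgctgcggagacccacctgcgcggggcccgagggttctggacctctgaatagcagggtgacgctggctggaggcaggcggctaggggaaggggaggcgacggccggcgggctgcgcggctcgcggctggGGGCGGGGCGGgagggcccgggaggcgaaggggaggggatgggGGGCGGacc
The Prss35 window had a GC content of 50.8% and 8 CpG dinucleotides, near the median of 52.4% and 6 CpG over 32851 RefSeq promoters of this length. The Prss23 window had a GC content of 74.4% and 27 CpG dinucleotides, and 95.8% of promoters had a GC content at or below it. Over the windows of all 7 Prss23 starts, GC content ran from 47.6% to 79.6% and CpG dinucleotides from 2 to 34. A CCAAT box (CCAAT, either strand) began 171 bases before the start of Prss35, and 33.8% of all promoters held one. The GC box (GGGCGG, either strand) was found once for Prss35, 60 bases before the start, and 3 times for Prss23, at 52, 47 and 9 bases, the first of which overlap each other. It was present in 32.7% of promoters. Neither window held a TATA box (TATAAA, 12.4% of promoters), an AP-1 site (TGACTCA, 4.46%), an NFAT core (TGGAAA, 18.6%) or an E-box (CACGTG, 6.02%), each searched on both strands. Among all 7 Prss23 windows, 4 held a GC box, 2 an AP-1 site and 2 an NFAT core.

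Library totals ranged from 13759108 to 20830349 counts, with all 3 D-gal libraries below the control libraries. A gene was called where its adjusted p was under 0.05 and its level changed by 1 or more on the log2 scale. Of all genes tested, 4.21% were called, 2.37% as higher and 1.83% as lower in D-gal, and 34.8% passed the adjusted p alone, 16.9% as higher and 17.8% as lower. Defining markers of fibroblasts were present, with 11 of 12 markers tested, and their summed level was 15281 to 15572 CPM (counts scaled to the library total) in control and 9105 to 9695 in D-gal. At the adjusted p alone, 2 of them were higher and 7 lower. Muscle markers summed to at most 5.98 CPM and endothelial markers to at most 5.34 CPM, with Pax7, Myf5 and Myod1 at 0 in every library. Immune markers reached 10.6 CPM in a control library and 4.43 CPM in D-gal, and adipocyte markers 0.0480 CPM. The part of these shifts in the values below was not tested. In bulk RNA, fewer cells that express a gene and less RNA per cell cannot be told apart.

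Prss35 was at a low level in control cells and among the highly counted genes in D-gal cells. Its counts were 106, 105 and 46 in control replicates 1 to 3, and 4247, 6717 and 4972 in D-gal replicates 1 to 3. After scaling to the library size (TMM, normalized counts), the values were 92.4, 85.7 and 46.5 in control and 4766, 7335 and 5991 in D-gal. Every D-gal library lay far above every control library, and the groups did not overlap. Groups without overlap were found for 49.1% of all genes tested, with 24.1% higher and 25% lower in D-gal. The mean was 74.8 ± 24.8 in control and 6031 ± 1285 in D-gal (SD, n = 3 each). The log2 fold change was 6.31 (SE 0.24), or 79.3-fold. Ordered by count among the 34745 genes, Prss35 stood at 10464, 10553 and 11345 in the control libraries and at 582, 284 and 403 in the D-gal libraries.

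Prss23 moved the other way, by far less. Its counts were 1396, 1549 and 1226 in control and 818, 771 and 766 in D-gal. The normalized counts were 1217, 1264 and 1238 in control and 918, 842 and 923 in D-gal. All D-gal libraries were lower than all control libraries. The mean was 1239.5 ± 23.7 in control and 894 ± 45.4 in D-gal (SD, n = 3 each), a log2 fold change of −0.47 (SE 0.05), or 1.39-fold lower in D-gal. Its place by count was 3271 to 3391 in control and 4317 to 4667 in D-gal, so Prss23 was counted more than Prss35 in the control libraries and less in the D-gal libraries.

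**Figure D2:**
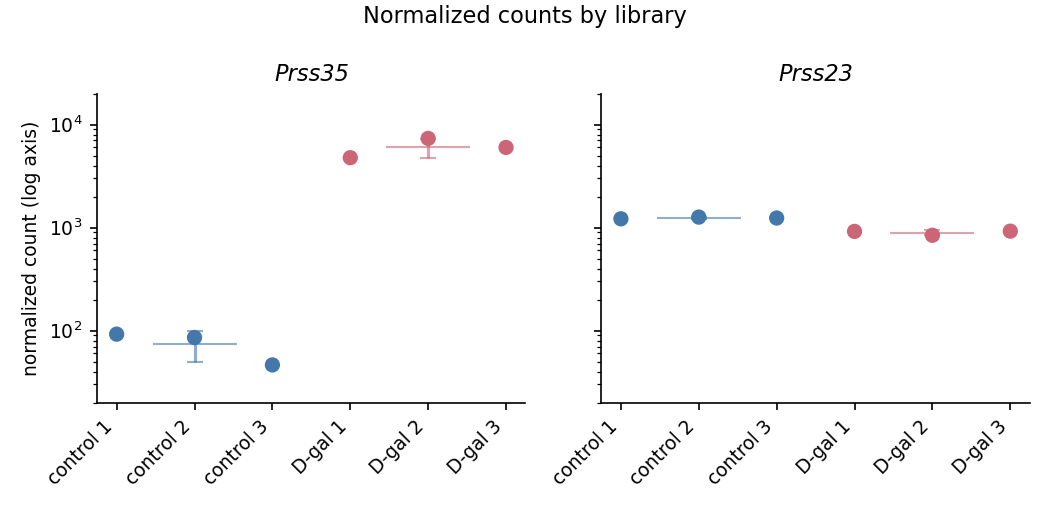
Normalized counts (log axis) of Prss35 and Prss23 in each library, with points for libraries, lines for group means and bars for the SD. Prss35 sits between 46.5 and 92.4 in control and between 4766 and 7335 in D-gal, while Prss23 sits between 1217 and 1264 in control and between 842 and 923 in D-gal.

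The members also differed in how evenly the libraries of a group ran. The coefficient of variation (SD as a percentage of the mean) of Prss35 was 33.1% in control, where counts were low, and 21.3% in D-gal. Among 10411 genes with a mean of at least 100 normalized counts in D-gal, the median was 5.20%, and 406 genes (3.90%) varied more than Prss35. D-gal replicate 2 held the highest value of Prss35 and the lowest value of Prss23. The coefficient of variation of Prss23 was 1.92% in control and 5.08% in D-gal. In control, 85.5% of 10377 genes varied more than Prss23, and in D-gal 51.2% of genes did.

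The next rises were ranked among called genes without overlap between the groups and with at least 100 counts in every D-gal library. There, Prss35 was followed by the transporter gene Slc6a12, by Tnn and by Gm28062. Slc6a12, which carries betaine and GABA, had a log2 fold change of 4.23, from 11.1 ± 12.2 to 213 ± 56.3 normalized counts, and of 5.67 without control replicate 1, which held 29 of its control counts against 5 and 4 in the others. Tnn, the matrix glycoprotein tenascin-N, had 4.17, from 36.7 ± 3.88 to 665 ± 92.2 (SD, n = 3 each). Gm28062, a gene model, had 3.81, with uneven control counts of 135, 5 and 17. Leaving out control replicate 1 raised its value to 6.01, beside 6.48 for Prss35 in the same setting. Below the count minimum, 4 called genes had a fitted log2 fold change above that of Slc6a12. Vwa5b2 had 6.26, close to Prss35, with counts of 0, 4 and 0 in control and 65, 113 and 86 in D-gal. RP24-418D1.3 had 4.94 and Sema5b 4.91. Fgf14, a fibroblast growth factor homologue that binds sodium channels, had 0 in every control library and 15, 13 and 15 in D-gal, so that its fitted value of 7.04 depends on the prior count and gives no fold.

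A comparison of levels between the members needs the gene length. In the deposited FPKM values (fragments scaled to the gene's length in kilobases and the library's total), Prss35 was at 0.838, 0.776 and 0.420 in control and at 44.0, 68.2 and 55.6 in D-gal. Prss23 was at 22.2, 23.1 and 22.5 FPKM in control and at 17.1, 15.8 and 17.3 FPKM in D-gal. Prss23 was therefore the higher of the members in every control library and Prss35 in every D-gal library. The log2 ratio of Prss35 to Prss23 was −5.12 ± 0.55 in control and 1.72 ± 0.37 in D-gal (SD, n = 3 each).

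The size of that ratio depended on the length used. The deposited FPKM of Prss35 corresponds to a length of 6497 bases, which is the sum of its 4 distinct annotated exons, although these overlap and cover 3444 positions. For Prss23 the length was 3226 bases, while its 16 distinct exons in GENCODE M21 cover 3767 positions. Some of those exons lie outside the gene's span in the deposited table (chr7:89507785-89517586). The exons of the main Prss23 transcript, of 140 and 3088 bases, together come close to the 3226 bases. The 3767 positions therefore include bases outside that transcript. They may overstate the length that was counted for Prss23, which would make its level per length too low. With each exon position counted once, Prss35 was at 1.58, 1.46 and 0.791 CPM per kilobase in control and at 83.0, 128.7 and 104.9 in D-gal. Prss23 was at 19.0, 19.7 and 19.3 in control and at 14.6, 13.5 and 14.8 in D-gal. The log2 ratio then came to −3.98 ± 0.55 in control and 2.86 ± 0.37 in D-gal. The order of the members within each library was the same with both lengths, and the difference between the groups was 6.85 with both.

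**Figure D3:**
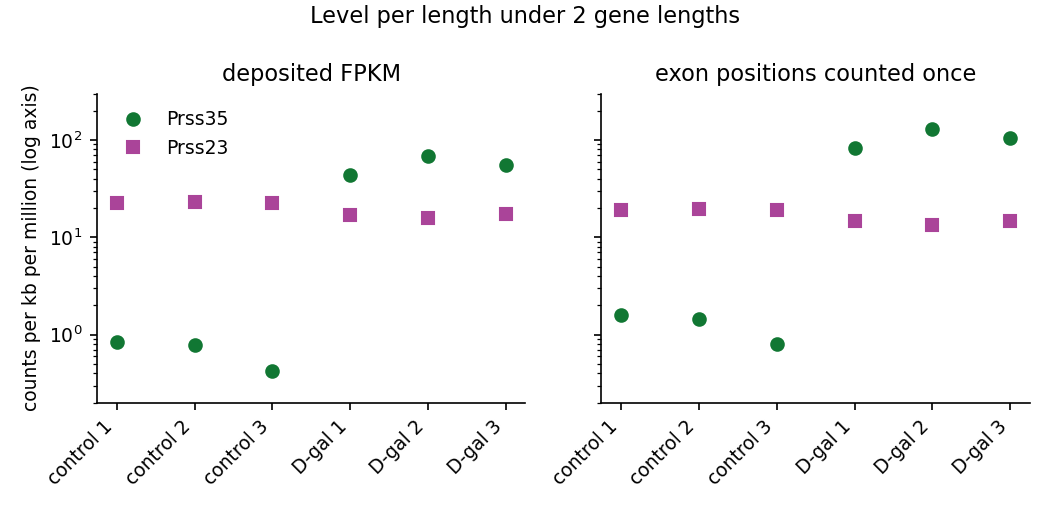
Level per length of Prss35 (circles) and Prss23 (squares) in each library on a log axis, as deposited FPKM (left) and as CPM per kilobase with each exon position counted once (right). In both panels Prss35 lies below Prss23 in the 3 control libraries and above it in the 3 D-gal libraries, and on the right it goes from between 0.791 and 1.58 to between 83.0 and 128.7.

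Against the other transcripts of the family, Prss35 was a minor member in control and a leading one in D-gal. Shares were taken of the summed level per length, with exon positions counted once, of 122 genes with a trypsin fold or a Prss symbol. Of these, 121 had a known length. Prss35 made up 0.631%, 0.568% and 0.251% in control. In D-gal it made up 23.1%, 37.9% and 27.2%. Its place within the family went from 14, 15 and 17 to 2, 1 and 2, beside the complement proteases C1s1 and C1ra. C1s1 was uneven within each group, at 3620, 3844 and 7039 normalized counts in control and 6217, 2738 and 6425 in D-gal. The shares and sums depend in part on it, and Prss35 held place 1 in D-gal replicate 2, where C1s1 was lowest. Prss23 made up 7.59%, 7.66% and 6.11% in control, where it held place 4 or 5. In D-gal its share was 4.07%, 3.98% and 3.83%, at place 6 in each library. The sum without Prss35 was 249, 256 and 315 in control and 276, 211 and 281 in D-gal, so those ranges overlapped.

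Most other genes with a Prss symbol were silent in these cells. Of 37 in the table, 21 had a count of 0 in every library and 6 passed the low-count filter. Among those 6, Prss2 (trypsin) was called higher, with counts of 8, 12 and 6 in control and 15, 16 and 11 in D-gal (log2 fold change 1.03, SE 0.33, edgeR adjusted p = 0.0431). The Prss2 call was lost by DESeq2 (adjusted p = 0.208), without the low-count filter, with a replicate block (edgeR adjusted p = 0.0661) and on leaving out any 1 of the 6 libraries. Reads of Prss2 may be shared with its near-identical trypsinogen copies, so its counts are uncertain. Prss22 was called lower, with counts of 32, 19 and 12 in control and 8, 3 and 4 in D-gal (−1.69, SE 0.50, edgeR adjusted p = 0.0326). The Prss22 call was kept by DESeq2 (adjusted p = 0.0473) and lost without control replicate 1 or 2 or D-gal replicate 2 or 3. By limma on log2(FPKM + 1) both genes passed the adjusted p (0.00549 for Prss2 and 0.0317 for Prss22), with log2 changes of 0.49 and −0.52 that were too small for a call. Prss36 passed the adjusted p alone, with counts of 51, 45 and 42 in control and 54, 71 and 66 in D-gal (0.82, SE 0.18, edgeR adjusted p = 0.00900). These were named after their values were seen, and none approached the D-gal counts of Prss35. Prss12, Prss16 and Prss53 did not pass.

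Other proteases of the trypsin fold did not move in a single direction. Of 20 tested, 2 were called higher and 1 lower (15%, beside 4.21% of all genes tested). At the adjusted p alone 5 were higher and 5 lower (50%, beside 34.8%). The median log2 fold change was 0.07 against 0.00 over all genes tested. The 2 called higher had low counts and were named after their values were seen. Cfb had 5, 11 and 2 in control and 19, 32 and 9 in D-gal (log2 fold change 2.06, SE 0.58, edgeR adjusted p = 0.0265). Mcpt8 had 25, 46 and 28 in control and 56, 50 and 52 in D-gal (1.03, SE 0.23, edgeR adjusted p = 0.00941). The one called lower was Hgf, hepatocyte growth factor, which like PRSS35 has the fold without the activity. It fell from 3476 ± 69.3 to 1419 ± 97.1 normalized counts (log2 fold change −1.29, SE 0.05, edgeR adjusted p = 3.9e-06). The plasminogen activators also fell, Plau from 761 ± 60.2 to 403 ± 26.7 (−0.92, SE 0.08, edgeR adjusted p = 1.2e-04) and Plat from 1685 ± 41.4 to 1330.0 ± 58.8 (−0.34, SE 0.05, edgeR adjusted p = 9.1e-04). Htra3, a secreted protease, fell from 458 ± 24.6 to 245 ± 39.2 (−0.90, SE 0.12, edgeR adjusted p = 7.9e-04). Masp1, a protease of the lectin pathway of complement, rose from 733 ± 39.0 to 876 ± 74.0 (0.26, SE 0.07, edgeR adjusted p = 0.0304). Masp1 no longer passed the adjusted p when control replicate 1 or 3, or D-gal replicate 2 or 3, was left out.

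Among inhibitors of serine proteases, 21 of 85 genes were tested, with 3 called higher and 5 lower (38.1%, beside 4.21% of all genes tested). At the adjusted p alone 5 were higher and 7 lower (57.1%, beside 34.8%). Serpini1, neuroserpin, which inhibits tissue plasminogen activator, rose from 53.1 ± 6.61 to 143 ± 15.9 normalized counts (1.42, SE 0.15, edgeR adjusted p = 2.8e-04). Serpinb6b also rose, from 159 ± 13.7 to 319 ± 26.3 (1.01, SE 0.10, edgeR adjusted p = 2.5e-04). Its change fell below the fold threshold without the low-count filter (0.9995), without control replicate 1 (0.942) and without D-gal replicate 2 (0.943). Serpina3g fell from 148 ± 17.6 to 41.0 ± 13.5 (−1.86, SE 0.22, edgeR adjusted p = 5.2e-04). Serpinb8 fell from 125 ± 8.25 to 54.2 ± 3.69 (−1.20, SE 0.13, edgeR adjusted p = 3.1e-04). Serpinb9b fell from 159 ± 4.83 to 78.7 ± 5.94 (−1.01, SE 0.11, edgeR adjusted p = 3.5e-04). Its change also missed the fold threshold without control replicate 1 (−0.995) and without D-gal replicate 1 (−0.983) or 2 (−0.983). Of the 21 inhibitors tested, DESeq2 called 8 and limma on log2(FPKM + 1) called 2. The b and a3 serpins lie in clusters of similar genes, which makes the split of reads among them uncertain.

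Proprotein convertases cut precursors at basic sites, and 6 of 9 were tested. At the adjusted p alone, 3 were higher and 1 lower (66.7%, beside 34.8% of all genes tested). Pcsk6 rose from 3286 ± 94.0 to 4968 ± 151 normalized counts (0.60, SE 0.04, edgeR adjusted p = 2.4e-05). Furin rose from 2398 ± 50.6 to 3217 ± 526 (0.42, SE 0.11, edgeR adjusted p = 0.0162), and no longer passed without control replicate 3 or D-gal replicate 2 or 3. Mbtps1, the site-1 protease, fell from 3959 ± 129 to 3123 ± 106 (−0.34, SE 0.04, edgeR adjusted p = 4.6e-04). Among 10 tested receptors and surface partners of serine proteases, 1 was higher and 6 lower at the adjusted p alone (70%, beside 34.8%). None of these was called by edgeR with the fold threshold, and DESeq2 and limma called 0 and 0. An unadjusted p under 0.05 was found for 7 of the 10, beside 5984 of all 13407 genes tested. S100a10 (−0.66, SE 0.05, edgeR adjusted p = 4.1e-05) and Anxa2 (−0.64, SE 0.05, edgeR adjusted p = 6.9e-05), which together form a docking complex for plasminogen, fell most among those named. F2r, the thrombin receptor (−0.38), Lrp1, which clears protease and inhibitor complexes (−0.29), and Plaur, the urokinase receptor (−0.28), fell less, with edgeR adjusted p of 6.8e-04, 7.2e-05 and 0.0147. Plaur no longer passed the adjusted p without D-gal replicate 2.

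Over all 5 lists, 63 genes were tested and 14 were called (22.2%, beside 4.21% of all genes), 7 higher and 7 lower. At the adjusted p alone 57.1% passed, beside 34.8% of all genes, and no test of the lists as sets was run. Without control replicate 1 the number called was 9. The median log2 fold change of the 63 genes was −0.03. The change that was largest in size among the 63 was that of Serpina3n, an inhibitor named after its values were seen, with counts of 76, 75 and 56 in control and 6, 3 and 9 in D-gal (−3.14, SE 0.32, edgeR adjusted p = 2.2e-04).

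**Figure D4:**
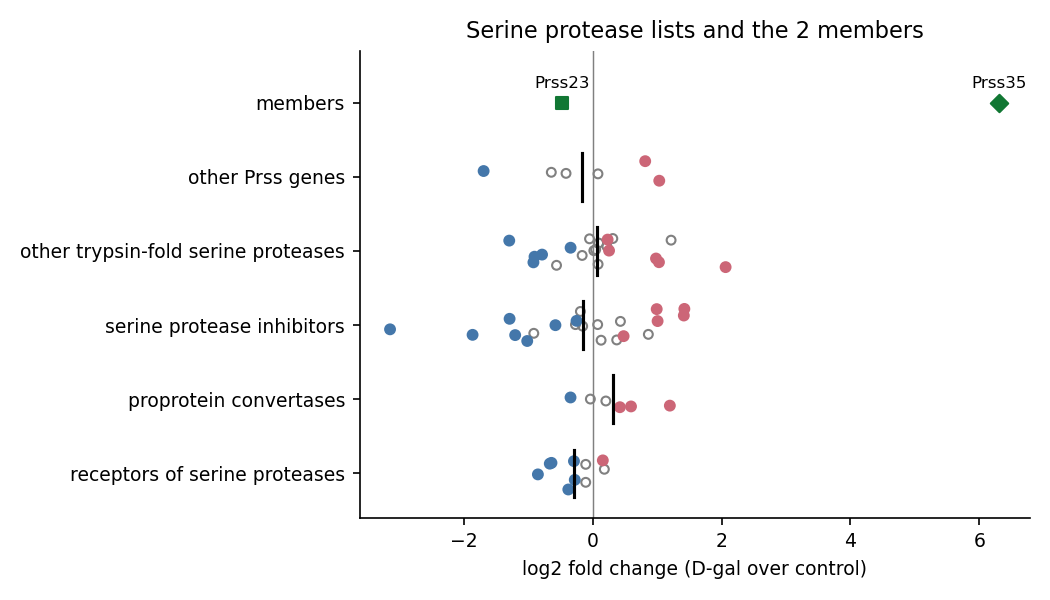
Log2 fold change (D-gal over control) of the tested genes in the 5 lists, with Prss35 and Prss23 drawn apart. Filled points passed the adjusted p (red higher, blue lower in D-gal), open points did not, and black bars mark list medians. The lists spread to both sides of 0, with medians between −0.28 and 0.31, while Prss35 stands at 6.31.

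The neighbours of the members on the chromosome were compared to see whether the changes were shared along it. Within 500 kb of Prss35 the table lists 16 genes, of which 6 were tested. Me1 (chr9:86581371-86695953, minus strand), malic enzyme 1, which makes NADPH in the cytosol, lies 47.7 kb from Prss35. Its counts were 1810, 1841 and 1511 in control and 4029, 5248 and 4055 in D-gal. Its mean went from 1535 ± 38.4 to 5046 ± 620.3 normalized counts (log2 fold change 1.72, SE 0.08, edgeR adjusted p = 7.9e-06). Every D-gal library lay above every control library, as for 24.1% of all genes tested, and D-gal replicate 2 again held the highest value. Snap91, the nearest gene at 7.48 kb, had 23 counts in all and was not tested.

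Among the other tested neighbours of Prss35, Cep162 was lower (−0.24, SE 0.05, edgeR adjusted p = 0.00889), but did not pass by limma on log2(FPKM + 1), where its value was −0.16. Ube2cbp (0.14, edgeR adjusted p = 0.620), Dopey1 (0.17, edgeR adjusted p = 0.0671), Pgm3 (−0.15, edgeR adjusted p = 0.159) and Cyb5r4 (0.13, edgeR adjusted p = 0.104) did not pass. Of the 6 tested, 1 was higher and 1 lower at the adjusted p alone, beside 34.8% of all genes tested. An unadjusted p under 0.05 was found for 4 of the 6, beside 5984 of all 13407 genes tested. Within 500 kb of Prss23, 11 genes are listed and 4 were tested. Tmem135 (0.13, edgeR adjusted p = 0.378), Fzd4 (−0.04, edgeR adjusted p = 0.697), l7Rn6 (0.23, edgeR adjusted p = 0.101) and Eed (0.15, edgeR adjusted p = 0.156) did not pass, with 1 of the 4 at an unadjusted p under 0.05 and 0 and 0 past the adjusted p by DESeq2 and limma. Without control replicate 1, l7Rn6 passed (0.31).

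**Figure D5:**
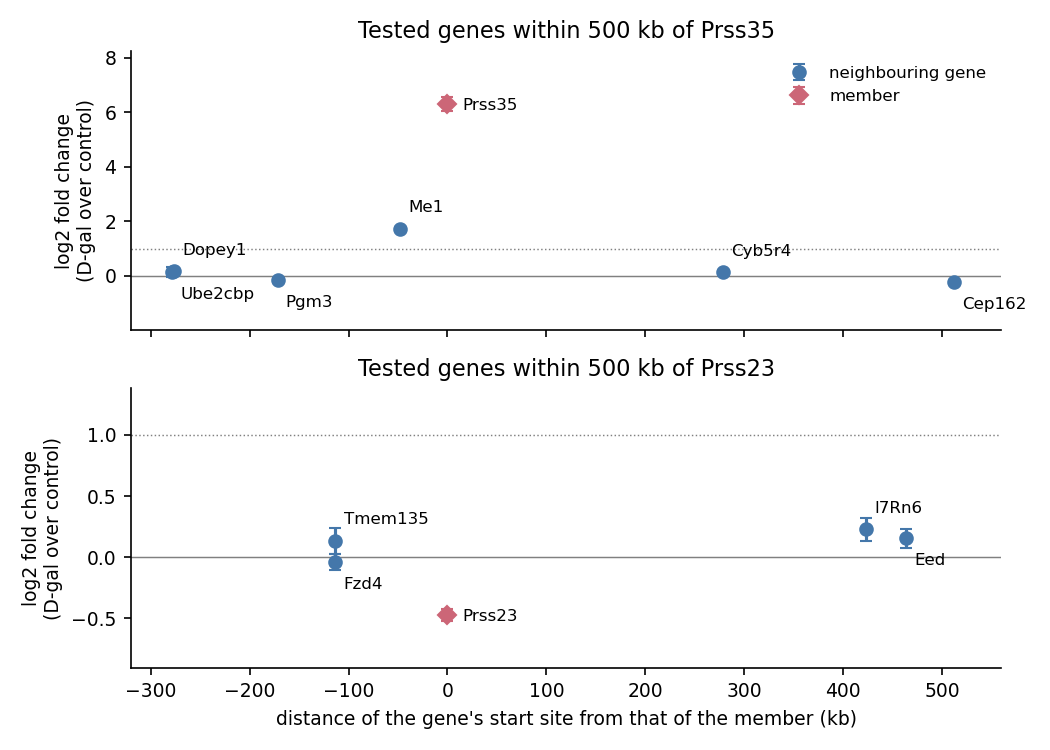
Log2 fold change (D-gal over control, bars give the SE) of tested genes within 500 kb of Prss35 and of Prss23, by distance of their start site from that of the member in kb. Prss35 at 6.31 and Me1 at 1.72 stand above the dotted line at a log2 fold change of 1, and no other gene passes it.

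The genes whose pattern over the 6 libraries was most like that of each member were sought by the Pearson correlation of log2 normalized counts. The values describe 6 points in groups of 3, in which the difference between groups dominates. For Prss35, among 10340 genes, Nrp2 (r = 0.9997), Chd3 (0.9996) and Mpp5 (0.9994) came first, with log2 fold changes of 0.79, 0.44 and 0.62, and 869 genes (8.40%) had r above 0.95. For Prss23, Calm3 (0.9995), Trio (0.9994) and Rfc5 (0.9992) came first, with log2 fold changes of −0.34, −0.38 and −0.32, and 970 genes (9.38%) had r above 0.95.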

How the data were processed

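RNA-seq of NOR-10 cells was analysed in 3 control and 3 D-gal libraries, grouped by the labels, with the dose and duration from the study's methods. The authors deposited a table of raw counts per gene and of FPKM values, which the authors computed from those counts and a gene length. Reads were quality checked and trimmed (FastQC and Trimmomatic in the methods), and the submitters' processing notes name HISAT2 2.0.4, a read aligner. The counting tool's strand setting is not given in the sources used here.

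Counts were tested with edgeR 4.0.16 (R 4.3.3) after TMM scaling and filterByExpr, by quasi-likelihood F tests, with p-values adjusted after Benjamini and Hochberg over all 13407 genes tested. Genes were called at an adjusted p under 0.05 where the level changed by 1 or more on the log2 scale. Normalized counts were scaled to the mean TMM-adjusted library size. Replicates of a group differed from each other by more than the sampling noise in every pair, so none was merged. The scripts were tested on simulated data. Alternatives were DESeq2 1.42.0, limma 3.58.1 on log2(FPKM + 1), other filters and scaling, a replicate block, and each library left out in turn. P-values measure the spread between these libraries only.

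The members and the gene lists, which were written from general knowledge, were chosen with earlier results of these data known. Genes named were the members, up to 5 genes a list past the adjusted p (by size of change, with a minimum of 100 counts in each library of the group with the higher level), the 3 next rises after Prss35, the 3 genes most alike in pattern and the tested genes within 500 kb. The next rises were taken by the same count minimum among called genes whose groups did not overlap. Gene models came from GENCODE M21 and promoters from RefSeq, both GRCm38, and coding sequences were aligned with Biopython 1.88.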

Additional observations from a re-analysis of the deposited data

How the results depend on the processing

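Without the fold threshold 4661 genes were called, 36 of them in the lists, against 564 and 14 with it. By limma on log2(FPKM + 1) 120 genes were called, 3 in the lists, and the log2 fold change of Prss35 was 5.07, since the added 1 shrinks the change of a gene that is low in control. With exon positions counted once, the log2 ratio of Prss35 to Prss23 was −3.98 in control and 2.86 in D-gal. For Prss23 those positions include some outside its span in the deposited table. Leaving out 1 library at a time gave 491 to 572 genes, 9 to 14 in the lists, 6.08 to 6.48 for Prss35, −0.50 to −0.43 for Prss23 and log2 ratios of −5.32 to −4.81 in control and 1.53 to 1.90 in D-gal. Among 37 other named genes, 2 changed direction, Fzd4 (−0.072 to 0.0085, the latter without D-gal replicate 1) and Ube2cbp (−0.031 without control replicate 3, up to 0.30), neither of them called, and the cause was not tested.

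DESeq2, the size factors of DESeq2, no filter and a filter of at least 10 counts gave 383 to 627 genes and log2 fold changes of 6.30 to 6.33 for Prss35. Same-numbered libraries did not visibly deviate together (correlations of −0.01, −0.01 and 0.03). This cannot settle whether the numbers pair the samples, and the labels do not say. With a replicate block, 530 genes were called, 13 of them in the lists, and Prss35 and Prss23 stayed at 6.31 and −0.47. The low control counts of Prss35, 46 to 106, limit the precision of its fold change.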

Other observations

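The regions around the members hold paralogs of the same neighbouring genes, chosen here after their values were seen. Me1, near Prss35, has the paralog Me3 at 114.8 kb from Prss23. Me3 was close to silent, with counts of 11, 6 and 6 in control and 11, 6 and 0 in D-gal, too few to be tested, while Me1 was 3.29-fold higher in D-gal. Snap91, the nearest gene to Prss35, has the paralog Picalm at 612.6 kb from Prss23. Both encode clathrin assembly proteins. Picalm was abundant, at 5865 ± 84.4 normalized counts in control and 6377 ± 158 in D-gal (SD, n = 3 each). Its log2 fold change was small, at 0.12 (SE 0.03, edgeR adjusted p = 0.0191), and 34.8% of all genes tested passed the adjusted p. Every D-gal library lay above every control library, as for 24.1% of all genes tested.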
